A study of Mus musculus with 6 samples.

Results

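The genes of the autophagy machinery and of the vacuolar proton pump (V-ATPase) were examined in pancreatic islets of hIAPP-Tg and wild-type mice. The rule for members uses gene symbols only, but the symbols were chosen with earlier results of these data known. A probe set was taken if its platform annotation gave a single symbol from the following list. The list held the Atg series, the LC3 and GABARAP proteins, Ulk1, Ulk2, the Wipi proteins, Becn1, Pik3c3, Rb1cc1 and Sqstm1. It also held Nbr1, Optn, Tfeb, Tfe3, the V-ATPase subunits (Atp6v) and the accessory proteins (Atp6ap). This gave 126 of the 45037 probe sets tested and 56 of 18193 named genes, with 34 autophagy genes (79 probe sets) and 22 V-ATPase genes (47 probe sets). Optn, Atp6v0c, Atp6v1g3 and Atp6ap1l are not analysed here.

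The hIAPP-Tg mice carry the human IAPP gene (islet amyloid polypeptide) under an insulin promoter, so that the transgene is driven in beta cells. Islets of 3 hIAPP-Tg mice (replicates 4 to 6) were set against islets of 3 wild-type mice (replicates 1 to 3), 1 array a mouse. All were 12 weeks old per the sample labels (10 to 12 weeks per the design text) and ate standard chow without restriction, and the labels give both genotypes as FVB/N-Tg(Ins2-IAPP)RFHSoel/J. The arrays do not show whether amyloid had formed, and the mouse Iapp probe set, at 14.97 ± 0.058 in hIAPP-Tg islets, against 14.93 ± 0.058 in wild-type islets (mean and SD of 3 arrays), need not bind the human transcript, so it does not check the genotype.

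Autophagy encloses cytoplasm, protein aggregates or organelles in a double membrane, the autophagosome, which then fuses with the lysosome. A kinase complex around Ulk1 starts the process, a lipid kinase complex with Becn1 and Pik3c3 marks the membrane, and conjugation enzymes attach LC3 and GABARAP proteins to it, to which cargo receptors such as Sqstm1 (p62) bind. The V-ATPase, made of a cytosolic V1 sector that splits ATP and a membrane V0 sector that carries protons, acidifies the lysosome, and in beta cells also the insulin granule. Autophagy is known to be needed for beta-cell upkeep in mice, and Tfeb and Tfe3 are transcription factors that, as shown largely in human cells, switch on autophagy and lysosomal genes through E-box motifs.

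Those motifs could be located for part of the members, and the stretches that hold them are shown because Tfeb and Tfe3 are known to act through such letters. Promoter windows of RefSeq (build GRCm38.p6, from 250 bases before to 50 after the start site) were matched for 44 of the 56 genes, and the letters CACGTG, which read alike on both strands, stood in the windows of 8 of the 44 (18.2%), against 2187 of 27025 genes with a window (8.09%). These were 4 of 28 autophagy genes and 4 of 16 V-ATPase genes. The longer form GTCACGTG, searched on both strands and containing the shorter one, was found in 5 of the 44 genes (11.4%), against 689 of the 27025 (2.55%): Atg3, Atg7, Atg14, Atp6v0b and Atp6v0d1. The stretches run 5′ to 3′ on the strand of the gene with 25 bases on each side, and capitals mark CACGTG.
Atg3 (chr16:45158710-45158788, + strand): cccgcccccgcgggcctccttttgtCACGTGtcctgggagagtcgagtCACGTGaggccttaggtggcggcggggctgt
Atg5 (chr10:44268300-44268355, + strand): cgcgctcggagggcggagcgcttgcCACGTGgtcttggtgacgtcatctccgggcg
Atg7 (chr6:114670939-114670994, + strand): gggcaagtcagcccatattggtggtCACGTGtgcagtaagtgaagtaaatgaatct
Atg14 (chr14:47568405-47568460, - strand): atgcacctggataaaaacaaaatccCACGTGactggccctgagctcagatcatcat
Atp6v0b (chr4:117887317-117887390, - strand): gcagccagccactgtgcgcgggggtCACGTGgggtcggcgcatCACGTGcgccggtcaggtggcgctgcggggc
Atp6v0d1 (chr8:105566037-105566092, - strand): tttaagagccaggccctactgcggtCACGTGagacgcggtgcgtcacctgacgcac
Atp6v0e (chr17:26676374-26676429, + strand): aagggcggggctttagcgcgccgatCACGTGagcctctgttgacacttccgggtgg
Atp6v1a (chr16:44139360-44139415, - strand): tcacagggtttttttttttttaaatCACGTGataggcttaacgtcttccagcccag
A match describes the letters in the window only.

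All values are log2 expression values after RMA, an Affymetrix normalization that evens out probe intensities between arrays before combining them into probe sets. The distributions of the probe-set values can therefore still differ somewhat between arrays. The values were deposited with a step of 0.1. The array median was 5.7 on all 6 arrays, and the median correlation of an array with the others was 0.991 to 0.994. Of the control probe sets, only those of beta-actin and Gapdh were examined. Their 3′ minus 5′ differences ran from 1.2 to 1.3 for beta-actin and from 0 to 0.20 for Gapdh. A gene is represented by its probe set of highest mean over the 6 arrays, differences are hIAPP-Tg minus wild type, and intervals are 95% limma intervals of a single gene. The labels number each mouse separately and say nothing of litters or isolation days, so the p-values measure the spread between these arrays. In whole islets, fewer cells of a type and less RNA per cell cannot be told apart.

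No member differed between the genotypes beyond the replicate spread at the threshold used. Of the 126 member probe sets, limma put 0 under an adjusted p of 0.05 (Benjamini-Hochberg, over the whole array), against 0.0289% of all probe sets tested (13 of 45037), and the ordinary linear model without moderation also called 0. The smallest adjusted p was 0.471. At an unadjusted p under 0.05, 7 member probe sets (5.56%) were higher and 2 (1.59%) lower in hIAPP-Tg islets, beside 3.82% and 3.51% of all probe sets. All hIAPP-Tg arrays lay above all wild-type arrays for 6 member probe sets (4.76%) and below for 1 (0.794%), beside 3.44% and 3.22% of all probe sets. On both measures the higher share lay somewhat above that of all probe sets and the lower share below it. These gaps rest on few probe sets and were not tested. The member probe sets were also brighter, with a median level (mean over the 6 arrays) of 7.5, against 5.7 for all probe sets. At an unadjusted p under 0.05, 9.31% of all genes of level 9 or more were higher and 2.82% lower. Among dimmer genes these shares were 4.15% and 3.58%. At level 9 or more, 2 of 10 autophagy and 0 of 14 V-ATPase genes were higher, and 0 of either were lower. The count of 7 was 13 without wild-type replicate 2, 4 without wild-type replicate 3 and 4 without hIAPP-Tg replicate 6. The count of 2 was 4 without wild-type replicate 2, 0 without wild-type replicate 3, and 1 without hIAPP-Tg replicate 5 or 6.

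The differences themselves were small. Over the 56 genes they ran from -0.20 to 0.23 on the log2 scale, that is from 0.871-fold to 1.18-fold. All 18193 named genes ran from -2.17 to 4.43, but such a range widens with the number of genes. The quartiles were 0 and 0.13 for the members, beside -0.067 and 0.10 for all genes. The median interval reached 0.22 to either side of the difference, and for 55 of the 56 genes the whole interval lay inside ±0.5, or 1.41-fold. The exception was Atp6v1a, whose wild-type arrays spread widely. Over all genes the median interval also reached 0.22, and 15759 of 18193 had an interval inside ±0.5, so narrow intervals are not particular to the members. For 5 genes every array lay below the array median of 5.7, where the signal is not known to be above background and a narrow interval says little: Atg9b, Atp6v0a4, Atp6v0d2, Atp6v1b1 and Atp6v1c2. Of the other 51 genes, 50 had an interval inside ±0.5. For 5 genes the representing probe set is of the type shared by several transcripts (Becn1, Gabarapl1, Wipi1, Atp6v1e1 and Atp6ap1) and for 3 of the type that can cross-hybridise (Map1lc3a, Atp6v0b and Atp6ap2).

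**Figure D1:**
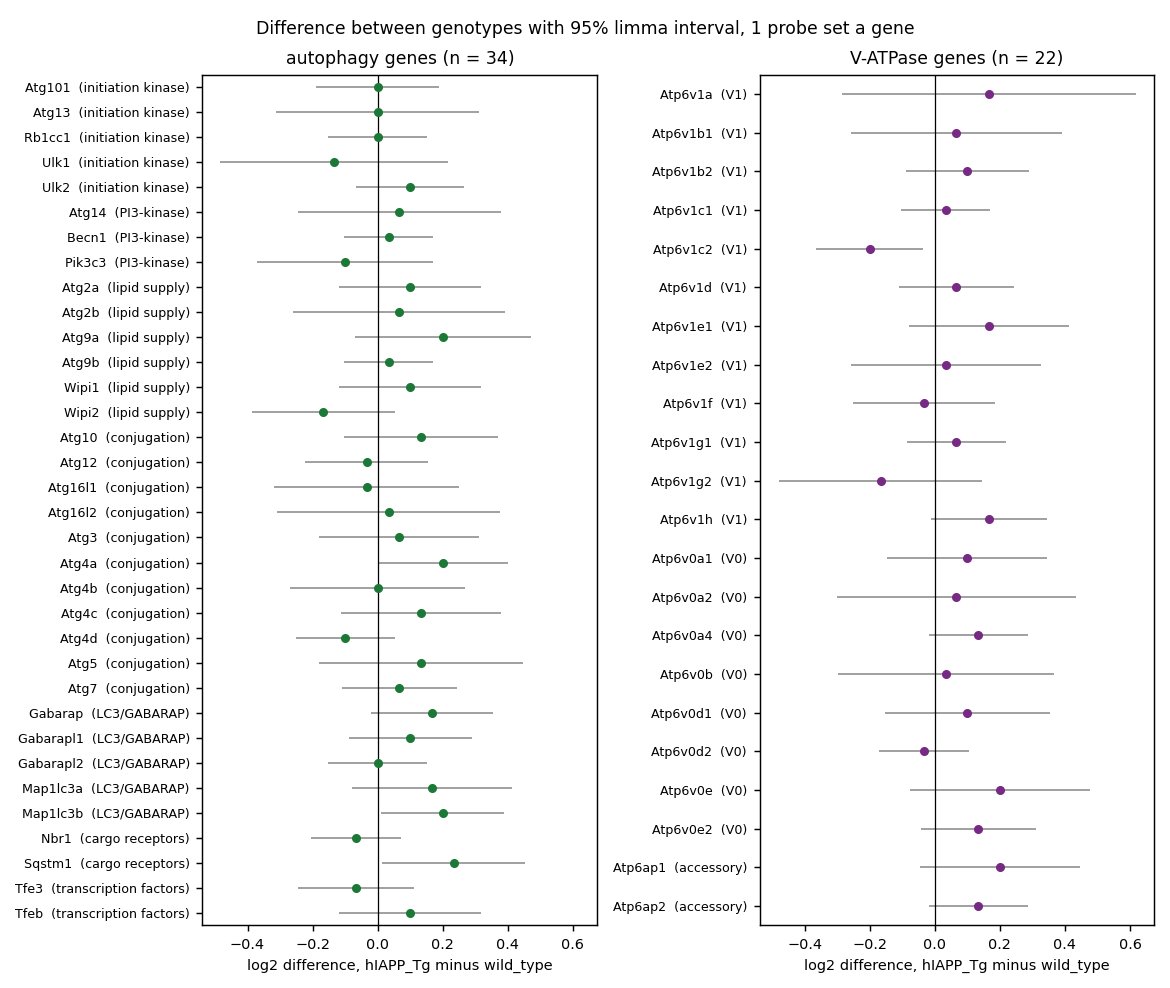
Log2 difference between hIAPP-Tg and wild-type islets (horizontal axis, hIAPP-Tg minus wild type) of each autophagy gene (left) and V-ATPase gene (right), with 95% limma intervals as bars and genes ordered by role. All points lie between -0.20 and 0.23, and the interval of Atp6v1a is the widest among the V-ATPase genes.

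No gene of the kinase complex that starts autophagy differed beyond its spread. Ulk1, its kinase, had 7.8, 7.3 and 7.8 in hIAPP-Tg islets, against 7.8, 7.7 and 7.8 in wild-type islets. The groups overlapped, and the low value of hIAPP-Tg replicate 5 made the mean difference of -0.13 (interval -0.48 to 0.22, limma adjusted p = 0.818). Without that array the difference was 0.033. The related kinase Ulk2 differed by 0.10, and the differences of the complex subunits Atg13 and Atg101 and of the scaffold Rb1cc1 (FIP200) were 0. A second Rb1cc1 probe set had 7.0, 7.5 and 7.2 in hIAPP-Tg islets, against 8.4, 6.6 and 7.6 in wild-type islets, so its difference of -0.30 came with a wild-type spread wider than itself.

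In the lipid kinase complex, Becn1 (Beclin 1) had 10.8 on all 3 hIAPP-Tg arrays, against 10.8, 10.8 and 10.7 on the wild-type arrays. Its 5 probe sets differed by -0.067 to 0.13. The catalytic subunit Pik3c3 differed by -0.10 and Atg14, which directs the complex to autophagosome formation, by 0.067. Among the proteins of lipid supply, Atg9a, a membrane protein of the vesicles that seed the autophagosome, had 6.9, 6.5 and 6.8 in hIAPP-Tg islets, against 6.5, 6.6 and 6.5 in wild-type islets. The groups overlapped (difference 0.20, interval -0.070 to 0.47, limma adjusted p = 0.691). Wipi2, which binds the lipid that the kinase makes, had 8.3, 8.2 and 8.3 in hIAPP-Tg islets, against 8.6, 8.3 and 8.4 in wild-type islets (difference -0.17, interval -0.39 to 0.052, limma adjusted p = 0.683). Its relative Wipi1 differed by 0.10 on the brightest of 6 probe sets and by -0.27 to 0.13 over all of them. The lipid transfer proteins Atg2a and Atg2b differed by 0.10 and 0.067, and Atg9b by 0.033.

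Of the 11 genes of the conjugation enzymes, 7 lay above 0, 3 below and 1 at 0, with a median difference of 0.067. Atg4a, a protease that trims LC3 and GABARAP proteins before and after use, had 8.8, 8.7 and 8.9 in hIAPP-Tg islets, against 8.5, 8.7 and 8.6 in wild-type islets. The groups met at 8.7 (difference 0.20, interval 0.00079 to 0.40, limma adjusted p = 0.632). Its paralog Atg4c differed by 0.13, Atg4b by 0 and Atg4d by -0.10. Atg7, the enzyme that activates both conjugation chains, had 7.5, 7.3 and 7.4 in hIAPP-Tg islets, against 7.4, 7.3 and 7.3 in wild-type islets, a difference of 0.067. Its 4 probe sets ran from -0.13 to 0.067, and their average differed by -0.017. Atg10, the enzyme that joins Atg12 to Atg5, differed by 0.13. Atg5 had 8.6, 8.7 and 8.7 in hIAPP-Tg islets, against 8.3, 8.8 and 8.5 in wild-type islets, so the wild-type arrays enclosed the hIAPP-Tg ones. Atg3, the enzyme that passes LC3 to the lipid, differed by 0.067, Atg12 and its scaffold Atg16l1 by -0.033 each, and Atg16l2 by 0.033.

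The LC3 and GABARAP proteins had the largest median difference among the autophagy roles, at 0.17, with 4 of 5 genes above 0. Their mean was 11.04, 11.00 and 11.02 on the hIAPP-Tg arrays, against 10.92, 10.96 and 10.80 on the wild-type arrays. Map1lc3b had 11.1, 11.0 and 11.0 in hIAPP-Tg islets, against 10.9, 10.9 and 10.7 in wild-type islets. The groups did not overlap, with a difference of 0.20 (interval 0.011 to 0.39, limma adjusted p = 0.620). Its other 3 probe sets differed by -0.067 to 0.033 and overlapped. Gabarap had 11.5, 11.4 and 11.4 in hIAPP-Tg islets, against 11.2, 11.4 and 11.2 in wild-type islets (difference 0.17, interval -0.022 to 0.36, limma adjusted p = 0.632). Both probe sets of Map1lc3a differed by 0.17, Gabarapl1 differed by 0.10 and Gabarapl2 by 0.

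The cargo receptor Sqstm1 showed the largest difference among the represented genes. It had 10.9, 10.9 and 10.8 in hIAPP-Tg islets, against 10.6, 10.8 and 10.5 in wild-type islets. The groups met at 10.8, and the difference was 0.23, or 1.18-fold (interval 0.014 to 0.45, limma adjusted p = 0.620). Its second, dimmer probe set differed by -0.033. Nbr1, a receptor with a similar domain layout, was at 11.1 on all hIAPP-Tg arrays, against 11.1, 11.2 and 11.2 on the wild-type arrays, a difference of -0.067.

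The transcription factor genes gave no common direction. Tfeb had 7.3, 7.1 and 7.0 in hIAPP-Tg islets, against 7.1, 7.0 and 7.0 in wild-type islets (difference 0.10, interval -0.12 to 0.32, limma adjusted p = 0.791). Tfe3 had 8.3, 8.1 and 8.2 in hIAPP-Tg islets, against 8.3, 8.3 and 8.2 in wild-type islets (difference -0.067, interval -0.24 to 0.11, limma adjusted p = 0.818). Both pairs of groups overlapped. These proteins are known to be controlled mainly through their place in the cell, which an array of RNA does not measure. The autophagy genes with CACGTG in their window (Atg3, Atg5, Atg7 and Atg14) differed by 0.067 to 0.13, against a median of 0.083 for the 24 without. The V-ATPase genes with it (Atp6v0b, Atp6v0d1, Atp6v0e and Atp6v1a) differed by 0.033 to 0.20, against a median of 0.083 for the 12 without. On the brightest probe set all 8 genes with the motif lay above 0, as did 15 of 24 autophagy and 9 of 12 V-ATPase genes without it. For Atg3, Atg5, Atg7 and Atp6v0b, another probe set lay below 0. Atg3 and the 4 V-ATPase genes with the motif had a level of 9 or more, where 65.9% of all genes lay above 0. The median with the motif was 0.067 for autophagy and 0.13 for V-ATPase genes. None of the 8 passed the test, and the difference between genes with and without the motif was not tested.

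In the V1 sector, 9 of 12 genes lay above 0 and 3 below. Atp6v1a, the subunit that splits ATP, had 9.9, 10.2 and 10.1 in hIAPP-Tg islets, against 9.6, 10.3 and 9.8 in wild-type islets. The wild-type arrays enclosed the hIAPP-Tg ones, and the difference was 0.17 (interval -0.29 to 0.62, limma adjusted p = 0.821). Atp6v1b2, the B subunit of most tissues, had 10.1, 10.2 and 10.2 in hIAPP-Tg islets, against 10.2, 10.0 and 10.0 in wild-type islets, a difference of 0.10. Atp6v1h, a regulatory subunit, had 10.2, 10.4 and 10.2 in hIAPP-Tg islets and 10.1 on all 3 wild-type arrays. The groups did not overlap (difference 0.17, interval -0.011 to 0.34, limma adjusted p = 0.632).

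Other V1 subunits stand in the stalk between the sectors. Atp6v1e1 had 11.8, 12.0 and 12.0 in hIAPP-Tg islets, against 11.8, 11.9 and 11.6 in wild-type islets. Its difference was 0.17, and all 4 of its probe sets lay above 0, at 0.067 to 0.27. Atp6v1d also lay above 0 on all 3 probe sets, and its dimmest held the smallest adjusted p of all members. That probe set, named after its values were seen, had 10.3, 10.2 and 10.2 in hIAPP-Tg islets, against 10.0, 10.0 and 9.9 in wild-type islets (difference 0.27, interval 0.11 to 0.42, limma adjusted p = 0.471). The brightest Atp6v1d probe set differed by 0.067 and the remaining one by 0.23, so the size depended on the probe set. The C subunit Atp6v1c1 was at 11.3 on 5 arrays and at 11.2 on the other. Atp6v1g1 and Atp6v1e2 differed by 0.067 and 0.033.

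Below 0 were Atp6v1g2, Atp6v1c2 and Atp6v1f (-0.033). Atp6v1g2, the G subunit of neurons, had 7.1, 6.6 and 6.9 in hIAPP-Tg islets, against 7.1, 7.0 and 7.0 in wild-type islets (difference -0.17, interval -0.48 to 0.15, limma adjusted p = 0.780). Atp6v1c2, a C subunit isoform, had 4.6, 4.5 and 4.4 in hIAPP-Tg islets and 4.7 on all 3 wild-type arrays (difference -0.20, interval -0.37 to -0.035, limma adjusted p = 0.557). The groups did not overlap, but every value lay under the array median. The isoforms of restricted tissues lay low on all arrays as well: Atp6v1b1, of kidney intercalated cells, at 4.7 to 5.2, and Atp6v0a4, also of kidney, at 4.2 to 4.4.

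In the V0 sector 7 of 8 genes lay above 0, with a median difference of 0.10. Atp6v0e had 11.4, 11.8 and 11.6 in hIAPP-Tg islets, against 11.4, 11.5 and 11.3 in wild-type islets (difference 0.20, interval -0.077 to 0.48, limma adjusted p = 0.711). Its isoform Atp6v0e2 had 10.3, 10.4 and 10.3 in hIAPP-Tg islets, against 10.2, 10.3 and 10.1 in wild-type islets (difference 0.13, limma adjusted p = 0.683). Both pairs of groups overlapped. Atp6v0d2, the d subunit of osteoclasts and macrophages, lay below the array median at 4.6, 4.5 and 4.6 in hIAPP-Tg islets, against 4.6 on all wild-type arrays. Its second probe set had 3.9, 3.8 and 4.0 in hIAPP-Tg islets, against 3.8 on all wild-type arrays. Its widely expressed partner Atp6v0d1 stood at 10.50 ± 0.10 in hIAPP-Tg and 10.40 ± 0.17 in wild-type islets (SD, n = 3 for both). The proteolipid subunit Atp6v0b, part of the rotating ring, differed by 0.033, and the a subunits Atp6v0a1 and Atp6v0a2 by 0.10 and 0.067.

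The accessory proteins were bright and leaned the same way. Atp6ap1, which helps assemble the pump, had 11.7, 11.5 and 11.5 in hIAPP-Tg islets, against 11.2, 11.5 and 11.4 in wild-type islets. The groups met at 11.5 (difference 0.20, interval -0.046 to 0.45, limma adjusted p = 0.683). Atp6ap2, also known as the prorenin receptor, had 12.9, 12.8 and 12.9 in hIAPP-Tg islets, against 12.7, 12.8 and 12.7 in wild-type islets (difference 0.13, interval -0.019 to 0.29, limma adjusted p = 0.632). Its other probe sets differed by 0 and 0.067.

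Most genes were read by several probe sets, and these often disagreed in sign. Of 25 autophagy genes with more than 1 probe set, 12 had differences on both sides of 0, 5 had all above and 1 all below. Of 12 such V-ATPase genes, 5 had both signs, 6 all above and 0 all below. Over probe sets, 40 of 79 lay above 0 for autophagy and 38 of 47 for the V-ATPase, and the differences ran from -0.30 to 0.33. Both ends came with wide spread: Rb1cc1 at the low end, as above, and at the high end a dim Atg4c probe set with 4.7, 4.7 and 4.9 in hIAPP-Tg islets, against 4.7, 4.0 and 4.6 in wild-type islets. Non-overlapping groups that the brightest probe set did not show, named after their values were seen, were found for Atp6v1c1 (10.3 on all hIAPP-Tg arrays, against 10.1, 10.2 and 10.1 on the wild-type arrays), Atp6v1d, and dim probe sets of Atg12 and Becn1.

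**Figure D2:**
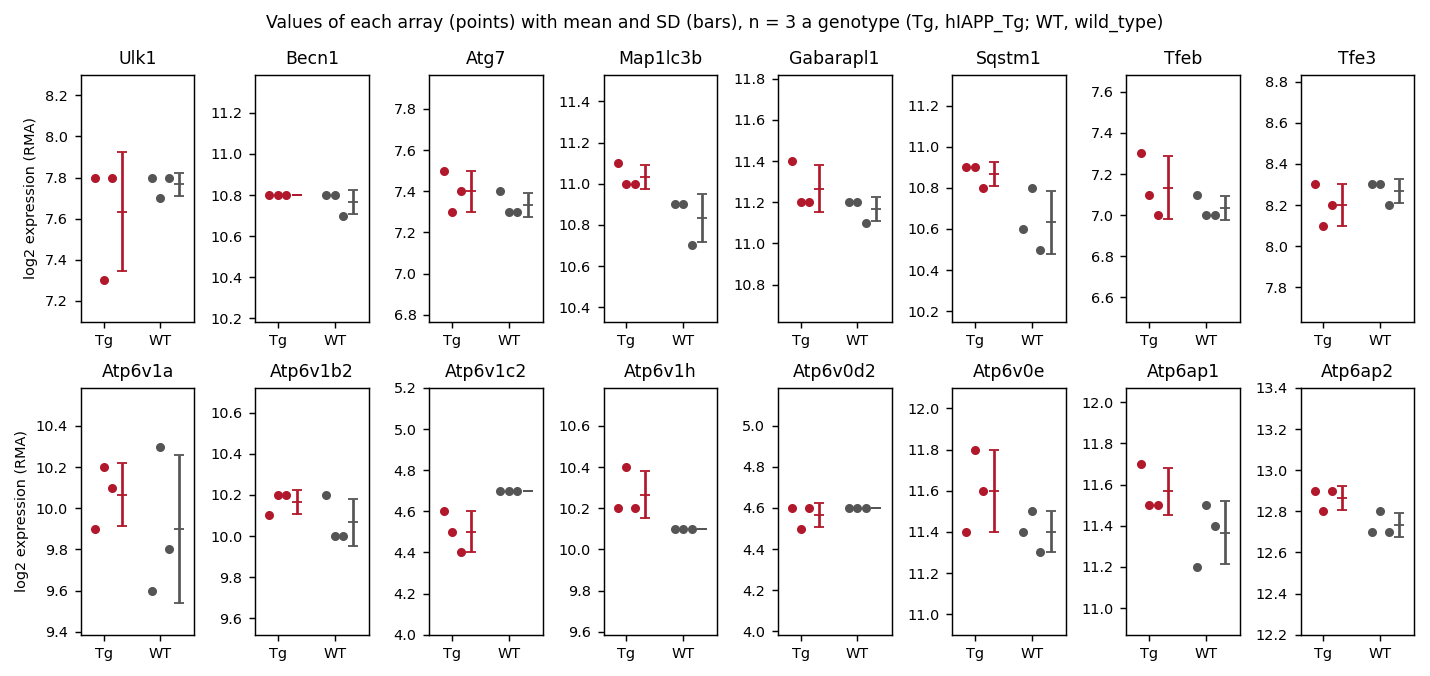
Log2 expression of 16 member genes on each array (points), hIAPP-Tg (Tg, left) and wild type (WT, right), with the mean and SD of 3 arrays as a bar beside them and a vertical axis of equal length in each panel. The groups are apart only for Map1lc3b, Atp6v1h and Atp6v1c2 among these 16, and the wild-type arrays of Atp6v1a spread from 9.6 to 10.3.

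The median differences of autophagy and V-ATPase genes lay close together. Among the 34 autophagy genes 21 lay above 0, 8 below and 5 at 0, with a median difference of 0.067. Among the 22 V-ATPase genes 18 lay above 0 and 4 below, with a median of 0.083. The medians differed by -0.017 (autophagy minus V-ATPase), less than the spread of that quantity between arrays of a genotype (SD 0.061). Over all 18193 genes 48% lay above 0 and 40.5% below, and the median was 0. At an unadjusted p under 0.05, 3 autophagy genes (Atg4a, Map1lc3b and Sqstm1) and 0 V-ATPase genes were higher, and 0 autophagy genes and 1 V-ATPase gene (Atp6v1c2) lower, beside 5.02% higher and 3.45% lower among all genes in limma. After adjustment, 0 of the 56 genes passed, against 0.044% of all genes.

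The lean above 0 went with signal level in the whole table. Among the 3082 genes whose level was 9 or more, 65.9% lay above 0 and the median difference was 0.067, as against 44.4% and 0 for the 15111 dimmer genes. The 10 autophagy genes of level 9 or more had 8 above 0 and a median of 0.10, and the 14 V-ATPase genes of that level had 13 above 0 and a median of 0.12. Whether these medians differ from that of the other genes of this level was not tested. The 24 dimmer autophagy genes had a median of 0.033 and the 8 dimmer V-ATPase genes one of 0.050. The part of signal level in the lean was not tested.

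**Figure D3:**
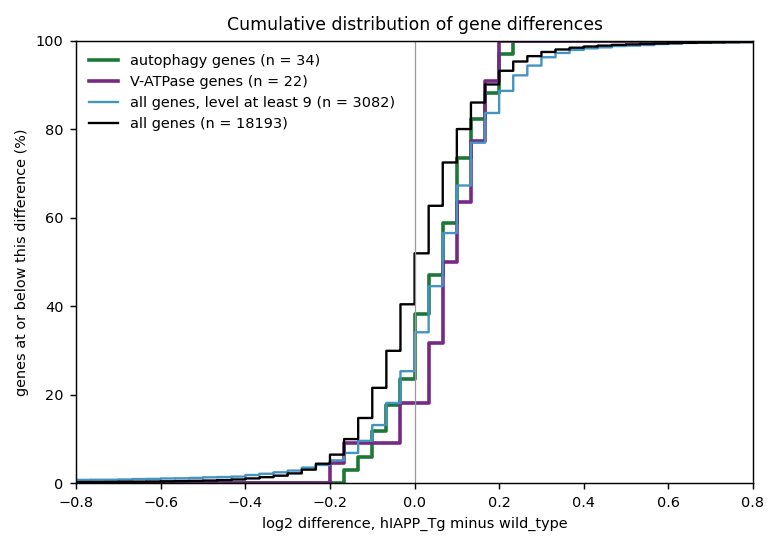
Share of genes (vertical axis, percent) at or below a given log2 difference (horizontal axis, hIAPP-Tg minus wild type) for autophagy genes, V-ATPase genes, all genes of level 9 or more and all genes. Both member curves stay between -0.20 and 0.23, and the curve of all genes stands higher at 0 than the other curves.

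The mean over the autophagy genes was 8.49, 8.44 and 8.52 on the hIAPP-Tg arrays, against 8.43, 8.48 and 8.38 on the wild-type arrays. That over the V-ATPase genes was 9.06, 9.12 and 9.14 on the hIAPP-Tg arrays, against 9.04, 9.11 and 8.96 on the wild-type arrays. The groups overlapped in both, and wild-type replicate 3 was the lowest array in both. It alone held the lowest wild-type value for 12 of 34 autophagy genes and 10 of 22 V-ATPase genes. Other arrays reached the same counts within their genotype: hIAPP-Tg replicate 5 for 12 of 34 autophagy genes, and hIAPP-Tg replicate 4 for 10 of 22 V-ATPase genes. Without wild-type replicate 3 the medians were 0.025 for autophagy and 0.042 for V-ATPase genes, and without hIAPP-Tg replicate 6 they were 0.033 and 0.042. Without hIAPP-Tg replicate 4 they were 0.042 and 0.13, and their difference was -0.092.

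Tcirg1, a V-ATPase gene that the symbols miss, encodes the a3 subunit of V0. It had 7.0, 6.9 and 7.0 in hIAPP-Tg islets, against 7.0, 6.9 and 6.9 in wild-type islets (difference 0.033, limma adjusted p = 0.908). In a list of 18 measured genes of V-ATPase assembly, regulation and counter-ion transport that includes it, 10 lay above 0, 7 below, and the median was 0.050. At an unadjusted p under 0.05, 1 gene was higher, the chloride-proton exchanger Clcn5 (9.6, 9.7 and 9.7 in hIAPP-Tg, against 9.4, 9.6 and 9.4 in wild-type islets), and 0 lower. After adjustment, limma called 0 of the 18.

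Regulators upstream and downstream of the core machinery gave 0 calls after adjustment in limma in each of the following 3 lists. Of 32 further autophagy regulators and receptors, 1 gene was higher at an unadjusted p under 0.05, the endoplasmic reticulum receptor Retreg1 (8.1, 8.1 and 8.4 in hIAPP-Tg, against 7.8, 8.0 and 7.8 in wild-type islets), and 1 lower, Calcoco1 (6.0, 5.5 and 6.0 in hIAPP-Tg, against 6.1, 6.3 and 6.2 in wild-type islets). Of 19 genes of autophagosome fusion, Vamp7, a membrane fusion protein of lysosomes, was higher (difference 0.23) and Rilp, a partner of Rab7, lower (-0.30, near the array median). Of 36 genes of mTORC1, AMPK and lysosomal nutrient sensing, which control autophagy, 4 (11.1%) were higher and 1 lower, beside 5.02% and 3.45% of all genes. The mean of this list was 8.45, 8.45 and 8.53 on the hIAPP-Tg arrays, against 8.40, 8.44 and 8.40 on the wild-type arrays. The groups did not overlap, but only narrowly, at 8.450 against 8.444. The mean over all genes itself ran from 6.811 to 6.854 between arrays. Among them Sesn1 differed by 0.23, the mTORC1 scaffold Rptor by 0.20 and Sesn3 by -0.23. The medians of these 3 lists were 0.033, 0.067 and 0.067.

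Lysosomal hydrolases and membrane proteins, which work in the compartment that the V-ATPase acidifies, gave other counts. Of 42 measured genes, 21 (50%) were higher at an unadjusted p under 0.05 and 0 lower, against 3 (5.36%) higher and 1 (1.79%) lower of the 56 members. Among all genes 5.02% were higher and 3.45% lower, and among those of level 9 or more 9.31% and 2.82%. The median difference of the lysosomal list was 0.20, against 0.067 for autophagy and 0.083 for V-ATPase genes, and 0 of its genes passed after adjustment. The acid lipase gene Lipa had 8.2 on all hIAPP-Tg arrays, against 7.7, 7.7 and 7.6 on the wild-type arrays (difference 0.53, limma adjusted p = 0.0924). The protease gene Ctsb had 10.9, 10.9 and 10.8 in hIAPP-Tg islets, against 10.5, 10.3 and 10.2 in wild-type islets (difference 0.53, limma adjusted p = 0.291). The difference between this list and the members was not tested.

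Among the marker lists, only that of macrophages and dendritic cells held genes that passed after adjustment in limma. Of 27 measured macrophage and dendritic cell markers 24 lay above 0, 20 were higher at an unadjusted p under 0.05, 4 passed after adjustment and the median was 0.73. Their mean was 7.71 to 7.87 on the hIAPP-Tg arrays, against 6.81 to 6.95 on the wild-type arrays, so the groups did not overlap. The brightest were Lyz1 (difference 2.47), Ctss (1.13) and C1qa (0.57). Of the 24 acinar markers 22 lay below 0, 1 was lower at an unadjusted p under 0.05 and 0 passed, and their mean overlapped, at 10.92, 8.78 and 10.08 on the hIAPP-Tg arrays, against 9.87, 11.12 and 11.45 on the wild-type arrays. With the acinar mean as a covariate, a setting chosen after seeing the data, the median difference was 0.037 for autophagy and 0.071 for V-ATPase genes. The part of macrophages in the values of the members and of the lysosomal list was not tested.

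Of the remaining marker lists, 16 beta-cell genes averaged 11.28 to 11.47 on the hIAPP-Tg and 11.58 to 11.63 on the wild-type arrays. These groups did not overlap. Of the 16 genes, 4 lay above 0 and 11 below, with a median of -0.12 and a lowest difference of -1.37. At an unadjusted p under 0.05, 1 was higher and 2 lower, and 0 passed after adjustment in limma. Ins2 was at 15.1, the highest value on every array, where a difference may not show. The median differences of 9 genes of alpha, delta and PP cells (-0.067), 16 endothelial and pericyte (0), 12 duct (0), 12 stellate (-0.13) and 11 lymphocyte genes (0) came with 0 calls each after adjustment. At an unadjusted p under 0.05 these 5 lists held 0, 3, 3, 1 and 0 higher genes and 2, 4, 0, 1 and 0 lower ones. Among 6 genes of cells that use the restricted V-ATPase isoforms, the osteoclast and macrophage phosphatase gene Acp5 had 6.1, 6.1 and 6.5 in hIAPP-Tg islets, against 4.8, 4.8 and 5.1 in wild-type islets (difference 1.33, limma adjusted p = 0.0924). From the same list, Ctsk differed by -0.067 and Slc4a1 by -0.17. Of the 6 genes, 4 lay above 0 and 2 below, with a median of 0.20. At an unadjusted p under 0.05, 2 were higher and 0 lower, beside 5.02% and 3.45% of all genes. Atp6v0d2, known from osteoclasts and macrophages, stayed below the array median on every array.

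**Figure D4:**
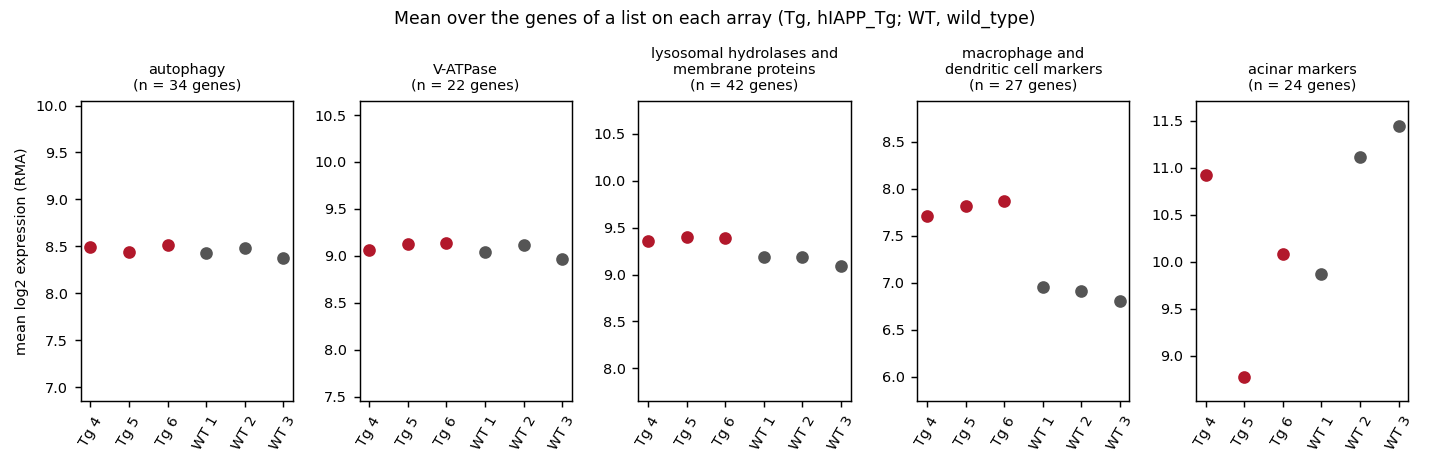
Mean log2 expression over the genes of a list (vertical axis, of equal length in each panel) on each of the 3 hIAPP-Tg arrays (Tg, left) and the 3 wild-type arrays (WT, right). Autophagy and V-ATPase means overlap between the genotypes, lysosomal and macrophage means do not, and acinar means spread from 8.78 to 11.45.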

How the data were processed

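Islet RNA (Trizol, 150 ng a labelling reaction per the labels' protocols) of 6 mice was read on Affymetrix arrays. The deposited table holds log2 values that the authors normalized with RMA in affy, per the submitters' processing notes. The sources used here do not give versions. All 6 columns were used. Of 45101 probe sets 64 controls were left out. Of those tested, 34945 had 1 gene symbol, 932 several and 9160 none here. All 126 member probe sets matched a RefSeq gene by Entrez number, with 0 symbols changed.

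A two-sided limma 3.58.1 fit (lmFit, eBayes) in R 4.3.3, with genotype as its only term, gave a p for each probe set, adjusted by Benjamini-Hochberg over all 45037 and called under 0.05. The fit was tested on simulated data. Arrays have no read depth, and their number (3 a genotype) limits the precision. Motif search and tables used Python 3.11.15, figures matplotlib 3.10.9.

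Members, roles and lists were chosen with earlier results of these data known, so no p was adjusted over a list and no list was given a test. Named were 12 genes taken for their role, the 6 further genes of smallest p and 2 of largest difference in each module, Tcirg1, up to 2 genes in each direction of each related list at an unadjusted p under 0.05, and the 3 brightest of a marker list, of which not all are printed. Alternatives were quantile normalization, median centring, a filter on dim probe sets, an intensity trend, a robust prior, array weights, an ordinary linear model, averaged probe sets, leaving out each array, and, chosen after seeing the data, an acinar covariate.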

Additional observations from a re-analysis of the deposited data

How the results depend on the processing

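No member passed the threshold in limma in any of the 15 alternatives run, where the smallest adjusted p of a member ran from 0.283 (array weights) to 0.722 (acinar covariate). No paired analysis was possible because the replicate numbers differ between the genotypes. None of 417 repeats of the 28 named genes passed the threshold. In 411 the sign was kept, in 2 the difference was 0 (Becn1 without wild-type replicate 3, Atp6v0d2 without hIAPP-Tg replicate 5), and in 4 it turned: Becn1 (-0.033) with quantile normalization, Atg7 (-0.017) and Atp6v0d2 (0.033) with averaged probe sets, and Ulk1 (0.033) without hIAPP-Tg replicate 5, the upper end of its range from -0.22 with an array left out. The count of all probe sets past the threshold (13) was 30 with quantile normalization, 51 with the robust prior, 26 with array weights, 128 with the ordinary linear model, where 120 probe sets have a difference and no spread, 3 with the acinar covariate and 1 to 4 with an array left out. Member probe sets higher at an unadjusted p under 0.05 (7) numbered 3 with quantile normalization, 4 among probe sets above the median level, 13 with array weights, 2 with averaged probe sets (over genes) and 4 to 13 with an array left out. Those lower (2) numbered 1 among probe sets above the median level, 1 in the ordinary linear model, 1 with averaged probe sets, 0 with the acinar covariate and 0 to 4 with an array left out. With an array left out the autophagy median was 0.025 to 0.083, the V-ATPase median 0.042 to 0.13 and their difference -0.092 to 0. The autophagy median (0.067) was 0.039 with quantile normalization, 0.033 with averaged probe sets and 0.037 with the acinar covariate, and the V-ATPase median (0.083) was 0.13 with array weights. The causes of these shifts were not tested, apart from the construction named.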
